A study of Mus musculus with 36 samples.

Results

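The comparison described here set 9-cis retinoic acid (9cisRA) against all-trans retinoic acid (atRA) at 6 h in mouse intestinal organoids, across all genes. Its members were the 8 libraries whose column names end in 6h_9cisRA or 6h_atRA, 4 of each, out of 36 libraries in the series, and 11361 of the 12652 genes in the table were tested. The 9cisRA group received 10 µM 9cisRA and the atRA group 10 µM atRA. The groups RXRi (5 µM of an RXR antagonist) and DMSO (vehicle) at 6 h, and the isomer groups at 24 h, are used here beside them. All groups share wild type genotype, C57BL/6 strain, male sex and an age of 8 weeks, and all come from the same 2 organoid cultures, each from 1 of 2 littermates. Organoids were grown from single cells (50000 per well) with medium conditioned by Wnt3a cells and inhibitors of ROCK (Y-27632) and GSK3 (CHIR99021). Each compound was added on day 3 together with the change to medium without those supplements, so every group underwent that change at the same time. Each RNA sample pooled 3 wells of a 24-well plate, and RNA was prepared in duplicate per mouse and condition, so a group holds 4 libraries but n = 2 mice.

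Retinoic acid is the active form of vitamin A, and the isomers differ in the geometry of a double bond in the side chain. As background, atRA is the main ligand of the retinoic acid receptors (RAR), while 9cisRA can bind both RAR and the retinoid X receptors (RXR). RXR is the common partner of RAR and of lipid-sensing receptors such as PPAR (fatty acids), LXR (oxysterols) and FXR (bile acids), and some of these pairs can respond to a ligand of RXR. In the intestine these receptors act on fatty acid oxidation, sterol export, bile acid handling and vitamin A metabolism, and the gene lists below follow those roles. The lists were written with earlier results of these data known, so counts of their members are descriptions and not independent tests.

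Values are RPKM, a read count divided by gene length and library size, given per library in the order mouse 1 duplicates, then mouse 2 duplicates. Differences are log2 fold changes, 9cisRA over atRA, computed from log2(RPKM + 0.5), so that differences of genes at low RPKM come out too small. They are given ± SE and with an adjusted p from limma (two-sided, Benjamini-Hochberg over all 11361 genes), and a gene is called where the adjusted p is below 0.05. RPKM means carry the SD over n = 2 mice. Gene positions are those of RefSeq on GRCm38.p6 (mm10). The recovered reads per library were 25.4 to 30.0 M with 9cisRA and 21.8 to 28.3 M with atRA, over the listed genes.

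The promoters of genes that were higher with 9cisRA are shown here because RXR pairs are known to bind direct repeats of AGGTCA. The letters searched were AGGTCANAGGTCA (spacing of 1 base, DR1, bound by PPAR and RXR) and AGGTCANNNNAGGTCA (spacing of 4 bases, DR4, bound by LXR and RXR), on both strands, with at most 2 mismatches among the 12 fixed letters. The windows run from 250 bases before to 50 bases after an annotated start in RefSeq, and a gene can have more than 1. Of 33 named genes called higher with 9cisRA, 28 had such a window, and those with a match are printed, together with Abca1, whose closest match to DR4 had 3 mismatches. Capitals mark the matches, chosen for printing after they were seen.
Abca1, chr4:53159846-53160145, minus strand: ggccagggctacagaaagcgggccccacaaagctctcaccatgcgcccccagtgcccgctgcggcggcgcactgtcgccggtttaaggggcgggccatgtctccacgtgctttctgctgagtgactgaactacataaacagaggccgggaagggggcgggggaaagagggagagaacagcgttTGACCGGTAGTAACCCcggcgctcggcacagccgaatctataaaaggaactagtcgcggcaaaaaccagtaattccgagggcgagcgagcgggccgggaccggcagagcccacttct
Gdf15, chr8:70632407-70632706, minus strand: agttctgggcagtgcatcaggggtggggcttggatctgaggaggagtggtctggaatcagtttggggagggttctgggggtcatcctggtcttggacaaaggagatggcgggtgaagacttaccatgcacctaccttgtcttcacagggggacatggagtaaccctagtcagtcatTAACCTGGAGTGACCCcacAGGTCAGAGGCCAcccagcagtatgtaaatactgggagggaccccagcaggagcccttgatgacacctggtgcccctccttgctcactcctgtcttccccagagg
1810065E05Rik, chr11:58420861-58421160, plus strand: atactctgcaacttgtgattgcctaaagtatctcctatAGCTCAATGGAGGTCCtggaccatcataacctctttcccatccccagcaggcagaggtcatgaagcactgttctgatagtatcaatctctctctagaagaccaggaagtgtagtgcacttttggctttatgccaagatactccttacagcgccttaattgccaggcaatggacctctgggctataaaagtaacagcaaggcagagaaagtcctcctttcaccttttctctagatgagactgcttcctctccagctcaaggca
Cbr1, chr16:93607587-93607886, plus strand: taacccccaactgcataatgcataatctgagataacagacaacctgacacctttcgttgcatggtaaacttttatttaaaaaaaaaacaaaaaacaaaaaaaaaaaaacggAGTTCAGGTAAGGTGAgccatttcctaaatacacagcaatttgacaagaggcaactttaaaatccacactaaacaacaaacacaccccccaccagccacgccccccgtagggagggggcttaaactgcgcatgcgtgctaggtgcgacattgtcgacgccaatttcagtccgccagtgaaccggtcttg
Slc25a20, chr9:108661886-108662185, plus strand: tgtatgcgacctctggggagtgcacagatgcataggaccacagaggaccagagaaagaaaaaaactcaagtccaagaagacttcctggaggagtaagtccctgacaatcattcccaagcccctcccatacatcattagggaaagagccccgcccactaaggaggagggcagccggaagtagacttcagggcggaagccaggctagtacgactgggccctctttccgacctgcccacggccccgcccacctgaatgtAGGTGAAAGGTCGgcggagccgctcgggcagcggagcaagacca
Acot4, chr12:84038129-84038428, plus strand: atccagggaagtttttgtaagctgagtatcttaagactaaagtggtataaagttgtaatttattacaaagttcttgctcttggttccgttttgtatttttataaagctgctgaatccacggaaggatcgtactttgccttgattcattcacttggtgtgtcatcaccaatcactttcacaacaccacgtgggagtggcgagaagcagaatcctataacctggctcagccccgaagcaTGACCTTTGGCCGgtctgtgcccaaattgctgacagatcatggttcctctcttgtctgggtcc
The Abca1 window held a DR4-like stretch 67 bases before the start. The Gdf15 window held a DR1-like stretch with 1 mismatch, beginning 55 bases before the start, and a DR4-like stretch with 2 mismatches beginning 74 bases before it. Slc25a20 and Acot4, whose window lies inside the annotated gene (84037254 to 84044723), held DR1-like stretches, and 1810065E05Rik and Cbr1 DR4-like ones. Such matches were common: DR1 with up to 2 mismatches stood in 3.21% of 11333 windows of tested genes, and DR4 in 2.37%, and with up to 3 mismatches in 21.1% and 18.1% of windows. Among the 141 genes called higher that had a window, 5 (3.55%) held DR1 and 8 (5.67%) held DR4 with up to 2 mismatches, against 352 (3.95%) and 255 (2.86%) of all 8918 genes. A match describes letters only, and the Pdk4 window held none within 3 mismatches.

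At 6 h 9cisRA gave higher transcript levels than atRA of genes for fatty acid oxidation and sterol export, with Pdk4, Acot1, Acot2 and Abca1 among the highest. The test called 195 genes (1.72% of those tested), 176 higher with 9cisRA (1.55%) and 19 lower (0.167%). With 0.5 RPKM added to every value, at least 2-fold differences were called for 6 genes, all higher with 9cisRA. Ratios of RPKM itself are larger at low levels: Acacb, with 1.20 against 0.471 RPKM and a log2 fold change of 0.79, is not among the 6. Most calls were small: the median log2 fold change was 0.36 among genes called higher and -0.25 among those called lower, and 132 of the 176 were below 0.5. All 195 had the same sign in both mice. All 4 libraries with 9cisRA lay above all those with atRA at 135 of the 176 genes called higher, and below at 13 of the 19 called lower, against 4.84% and 2.67% of all tested genes. Across all genes the difference in mouse 1 correlated with that in mouse 2 at r = 0.46, over genes that share the same 4 libraries within a mouse.

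**Figure D1:**
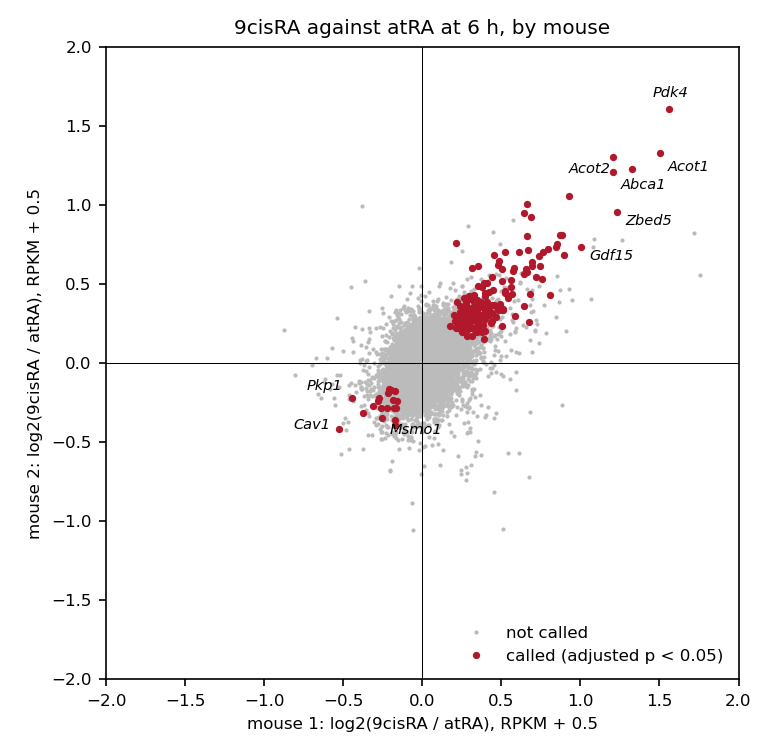
Log2 fold change of 9cisRA over atRA at 6 h in mouse 1 (horizontal axis) and mouse 2 (vertical axis), each point a tested gene, red where called. Pdk4 stands highest at 1.56 in mouse 1 and 1.61 in mouse 2. The called genes lie in the upper right and lower left quadrants, with the same sign in both mice.

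Genes of fatty acid use led the genes higher with 9cisRA. Pdk4, a kinase that inhibits pyruvate dehydrogenase and so spares glucose (chromosome 6, 5483351 to 5496278), had 4.87, 4.97, 5.29 and 5.05 RPKM with 9cisRA, against 1.41, 1.27, 1.39 and 1.34 RPKM with atRA. The groups were far apart and the duplicates and mice close together. The difference was 1.58 ± 0.075 (interval 1.42 to 1.74, adjusted p = 2.24e-07 by limma), or 2.99-fold after 0.5 RPKM is added to each value. Pdk4 itself averaged 5.04 ± 0.179 RPKM with 9cisRA and 1.35 ± 0.0158 RPKM with atRA, a larger ratio. In DMSO cultures it averaged 0.286 ± 0.0404 RPKM, so both isomers stood above vehicle, 9cisRA by 2.82 ± 0.075 (adjusted p = 1.37e-10) and atRA by 1.24 ± 0.075 (adjusted p = 2.44e-06). These comparisons with vehicle share the DMSO libraries, and 8.04% of all tested genes were called between 9cisRA and DMSO and 4.66% between atRA and DMSO.

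Acot1 and Acot2, neighbouring genes on chromosome 12 for thioesterases that release free fatty acids from acyl-CoA, followed. Acot1, in the cytosol, had 18.4, 18.4, 20.7 and 21.4 RPKM with 9cisRA, against 5.92, 6.42, 8.33 and 7.82 RPKM with atRA. Acot2, in mitochondria, had 12.6, 13.4, 16.4 and 17.4 RPKM with 9cisRA, against 5.28, 4.53, 7.49 and 6.39 RPKM with atRA. For both, every 9cisRA library lay above every atRA library. The differences were 1.42 ± 0.10 for Acot1 (adjusted p = 1.71e-05) and 1.28 ± 0.12 for Acot2 (adjusted p = 0.000264). Their sequences are similar, so reads could be split between them in a way the counting, which the sources used here do not describe, leaves uncertain. Acot4, a peroxisomal member of the same cluster, was also higher with 9cisRA (3.90 ± 0.794 against 2.22 ± 0.427 RPKM with atRA, 0.69 ± 0.11, adjusted p = 0.00989).

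Cpt1a, which loads fatty acids for entry to mitochondria, had a high level in all groups. It measured 89.6, 100, 97.2 and 107 RPKM with 9cisRA, against 69.3, 66.5, 67.7 and 64.4 RPKM with atRA, 0.55 ± 0.050 higher with 9cisRA (adjusted p = 0.000195). Slc25a20, the carrier that brings acylcarnitines across the inner membrane, was higher with 9cisRA by 0.39 ± 0.052 (adjusted p = 0.00403), and Eci2, an isomerase that helps oxidize unsaturated fatty acids, by 0.33 ± 0.049 (adjusted p = 0.00577). Of 28 tested genes for mitochondrial fatty acid oxidation, 6 were called higher and 0 lower, against 1.55% and 0.167% of all tested genes. Their median was 0.12, against 0.0050 over all tested genes.

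PPAR target genes, which include most of the above, were called higher with 9cisRA at 13 of 44 tested and lower at 0. Over all tested genes 1.55% were called higher and 0.167% lower, and the median of the 44 was 0.17. Of the 44, 40 had a positive difference, against 52.0% of all tested genes. Like the other lists, this one was written with earlier results of these data known. Beside Pdk4, Acot1, Acot2, Cpt1a and Slc25a20 its called genes included Hadha, Acaa1a, Acaa2, Cidec, Pex11a, Acsl3 and Aldh3a2. Acsl3, an acyl-CoA synthetase linked to lipid droplets, had 167, 160, 155 and 149 RPKM with 9cisRA, against 111, 110, 95.5 and 116 RPKM with atRA, with no overlap (0.54, adjusted p = 0.00922). Angptl4, a secreted inhibitor of lipoprotein lipase and a common readout of PPAR, had 104, 94.5, 114 and 111 RPKM with 9cisRA, against 73.9, 78.8, 88.2 and 85.0 RPKM with atRA. Its difference of 0.38 ± 0.091 missed the threshold (adjusted p = 0.0576), although its 4 libraries with 9cisRA lay above those with atRA. Plin2, a lipid droplet coat protein, had a difference of 0.16 ± 0.068 (interval 0.0091 to 0.30, adjusted p = 0.285).

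Peroxisomal genes were called higher at 4 of 37 tested (1.55% over all tested genes) and lower at 0, with a median of 0.059. Acaa1b, a thiolase of peroxisomal fatty acid oxidation, had 25.0, 22.6, 24.5 and 28.6 RPKM with 9cisRA, against 11.6, 14.1, 15.7 and 14.1 RPKM with atRA (0.84 ± 0.12, adjusted p = 0.00577). The groups did not overlap. Its close paralog Acaa1a was higher by 0.38 ± 0.073 (adjusted p = 0.0236), and the 2 may share reads. Pex11a, a factor of peroxisome division, differed by 0.49 ± 0.11 (adjusted p = 0.0398), with 0.21 in mouse 1 and 0.76 in mouse 2.

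**Figure D2:**
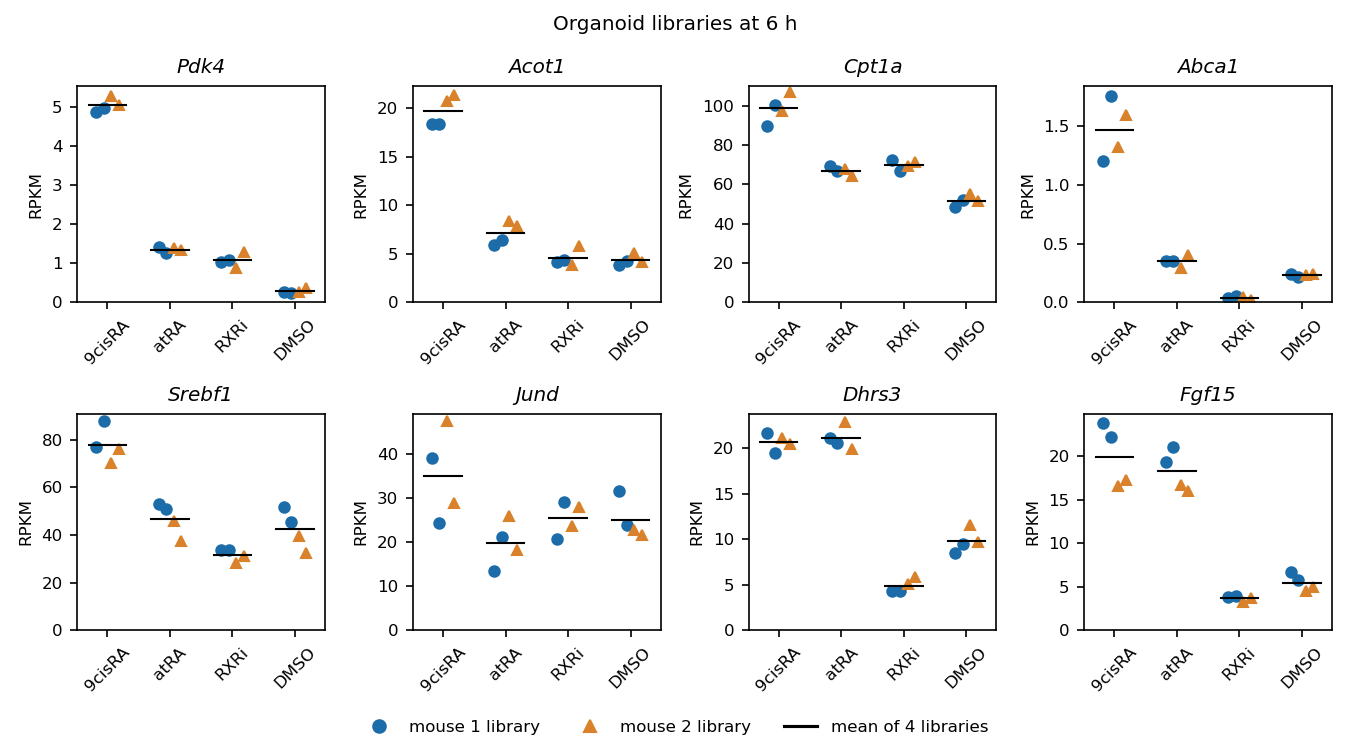
RPKM (vertical axes from 0) of 8 genes in each of the 4 libraries of 9cisRA, atRA, RXRi and DMSO at 6 h, circles for mouse 1, triangles for mouse 2 and a line at the mean of 4 libraries. For Pdk4, Acot1, Cpt1a, Abca1 and Srebf1 every 9cisRA library lies above every atRA library, while for Dhrs3, Fgf15 and Jund the groups overlap.

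Sterol and lipogenic genes known as LXR targets were called higher with 9cisRA at 6 of 17 tested and lower at 0. Over all tested genes 1.55% were called higher, and the median of the 17 was 0.22. Abca1, which exports cholesterol to apolipoprotein A-I (chromosome 4, 53030789 to 53159988), had 1.21, 1.75, 1.32 and 1.60 RPKM with 9cisRA, against 0.354, 0.349, 0.292 and 0.406 RPKM with atRA. The groups were far apart, and the difference was 1.205 ± 0.11 (adjusted p = 0.000229). With DMSO it averaged 0.232 ± 0.00563 RPKM. 9cisRA was thus 1.42 ± 0.11 above DMSO (adjusted p = 4.33e-06), while the difference of atRA from DMSO, 0.21 ± 0.11, was not called (adjusted p = 0.304). Every atRA library still lay above every DMSO library (0.214 to 0.242 RPKM), and the added 0.5 RPKM shrinks differences at such low levels. Abcg1, a related cholesterol exporter, was below the level required for testing and had 0.368, 0.513, 0.446 and 0.560 RPKM with 9cisRA, against 0.228, 0.177, 0.169 and 0.151 RPKM with atRA.

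Abcg5 and Abcg8, which together form the exporter of sterols into the gut lumen and are annotated head to head with overlapping starts on chromosome 17, moved alike. Abcg5 had 33.6, 32.9, 40.0 and 43.3 RPKM with 9cisRA, against 20.3, 21.4, 28.4 and 27.2 RPKM with atRA. Abcg8 had 17.7, 20.1, 20.6 and 24.1 RPKM with 9cisRA, against 12.4, 11.4, 15.8 and 14.1 RPKM with atRA. Both groups of libraries were apart, mouse 2 being higher than mouse 1 with either isomer. The differences were 0.62 ± 0.084 (adjusted p = 0.00403) and 0.60 ± 0.087 (adjusted p = 0.00573). Srebf1, the transcription factor that drives fatty acid synthesis, had 77.2, 88.0, 70.2 and 76.1 RPKM with 9cisRA, against 53.2, 50.8, 46.0 and 37.6 RPKM with atRA (0.73 ± 0.11, adjusted p = 0.00573). The desaturase Scd2 averaged 710 ± 12.9 RPKM with 9cisRA and 552 ± 24.5 RPKM with atRA (0.36 ± 0.048, adjusted p = 0.00403), and Lpcat3, which remodels phospholipids, differed by 0.31 (adjusted p = 0.0385). Scd1 had a difference of similar size that was not called (0.37 ± 0.096, adjusted p = 0.0783). The LXR genes themselves were not called: Nr1h3 differed by 0.043 ± 0.13 (interval -0.25 to 0.33) and Nr1h2 by 0.17 ± 0.075 (interval 0.0048 to 0.33, adjusted p = 0.30).

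Of 20 tested genes of fatty acid synthesis and desaturation, 3 were called higher, Srebf1, Scd2 and Acacb, and 0 lower. Over all tested genes 1.55% were called higher and 0.167% lower. Acacb, the acetyl-CoA carboxylase whose malonyl-CoA restrains Cpt1a, had 0.901, 1.10, 1.29 and 1.51 RPKM with 9cisRA, against 0.479, 0.442, 0.449 and 0.516 RPKM with atRA (0.79 ± 0.10, adjusted p = 0.00348). Triglyceride and lipid droplet genes were called higher at 2 of 24, the droplet protein Cidec (0.41 ± 0.089, adjusted p = 0.0385) and the triglyceride synthase Dgat2 (0.25 ± 0.057, adjusted p = 0.0431), which was called in 4 of 8 fits with a library left out. Of the genes of cholesterol synthesis and uptake, 1 of 28 tested was called, lower with 9cisRA, and 11 of 28 had a positive difference. That gene was Msmo1, a sterol methyl oxidase, with 63.2, 57.5, 63.8 and 62.7 RPKM with 9cisRA, against 70.8, 73.6, 76.1 and 85.3 RPKM with atRA (-0.30 ± 0.064, adjusted p = 0.0361).

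**Figure D3:**
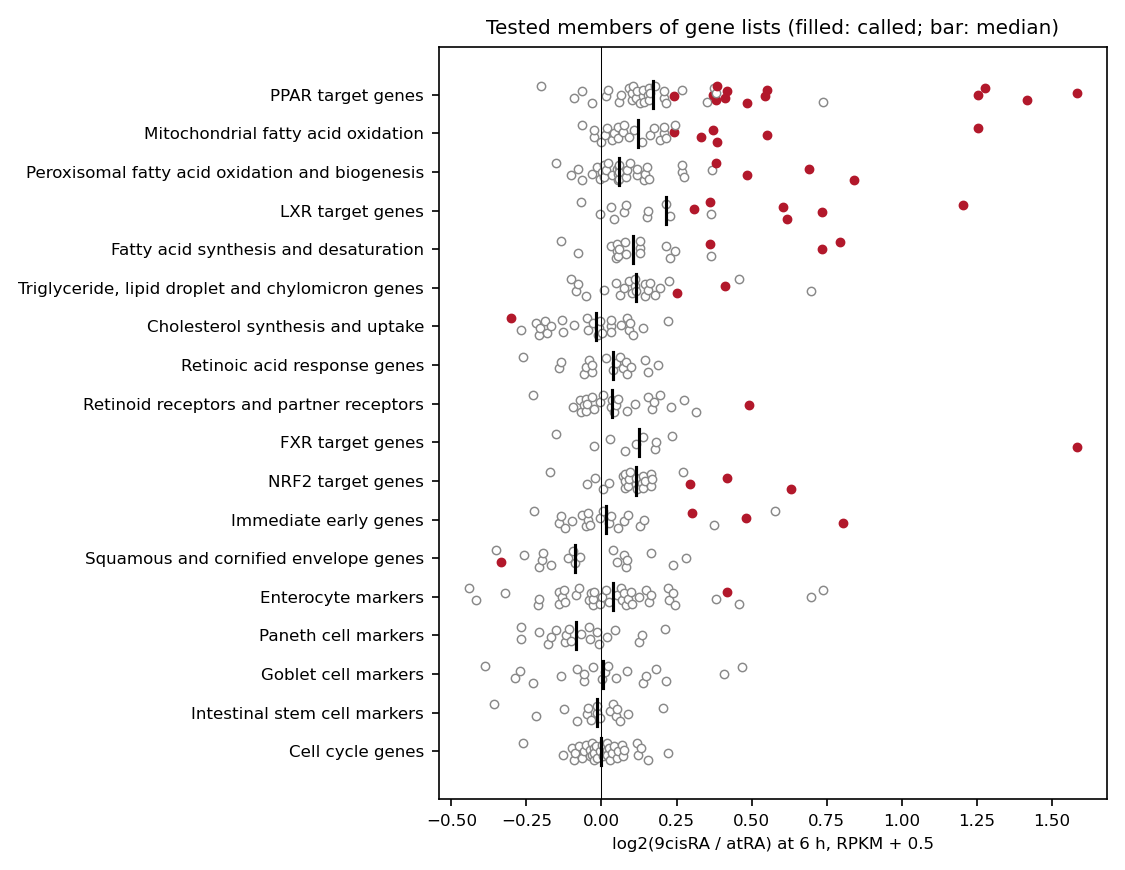
Log2 fold change of 9cisRA over atRA at 6 h (horizontal axis) for the tested members of 18 gene lists, each point a gene, filled where called, with a bar at the list's median. The PPAR and LXR lists have medians of 0.17 and 0.22 and called members up to 1.58 and 1.205, while the retinoic acid response, stem cell, goblet, Paneth and cell cycle lists hold no filled point.

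Of 19 tested genes known to respond to retinoic acid, limma called 0 between the isomers and voom on the recovered reads 0, while 2 had an unadjusted p below 0.05, and the median was 0.039. With 1.72% of all tested genes called and 1790 of 11361 at an unadjusted p below 0.05, these counts do not set the list apart. Dhrs3, a retinal reductase induced by retinoic acid in many tissues, had 21.7, 19.4, 21.1 and 20.4 RPKM with 9cisRA, against 21.2, 20.6, 22.9 and 20.0 RPKM with atRA. The groups overlapped throughout, and both stood above the 9.81 ± 1.13 RPKM of DMSO, by 1.04 ± 0.095 with 9cisRA (adjusted p = 1.56e-05) and 1.08 ± 0.095 with atRA (adjusted p = 3.68e-05). The interval of the difference between isomers, -0.24 to 0.17, limits it to that size. Isx, an intestinal repressor of vitamin A uptake genes, had an interval of -0.14 to 0.30. Cyp26b1, which degrades retinoic acid, was low, with 0.166, 0.219, 0.235 and 0.168 RPKM with 9cisRA, against 0.398, 0.249, 0.426 and 0.280 RPKM with atRA. Every 9cisRA library lay below every atRA library, and the difference of -0.26 ± 0.12 was not called (adjusted p = 0.320). The receptor genes Rara, Rarg, Rxra, Rxrb and Ppard had differences of -0.0058 to 0.11, none called, and Ppara had 0.31 ± 0.077 (adjusted p = 0.060). Among 27 tested receptor genes only the orphan receptor Nr2f6 was called (0.49 ± 0.10, adjusted p = 0.0325), and it was not called in the fit on GC content described below.

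FXR target genes gave 1 call among 10 tested, Pdk4, which is also in the PPAR list. Fgf15, the ileal hormone that signals bile acid supply to the liver, had 23.9, 22.2, 16.5 and 17.3 RPKM with 9cisRA, against 19.3, 21.1, 16.7 and 16.0 RPKM with atRA. The groups overlapped (0.12 ± 0.11, interval -0.12 to 0.35), and both lay above DMSO, which averaged 5.46 ± 1.02 RPKM. Slc51a and Slc51b, the subunits of the basolateral bile acid exporter, had -0.023 ± 0.089 and -0.15 ± 0.23. NRF2 target genes, which serve redox defence, were called higher at 3 of 26, against 1.55% of all tested genes. These were the carbonyl reductases Cbr3 (90.0 ± 10.5 with 9cisRA and 58.7 ± 12 RPKM with atRA, 0.63 ± 0.079, adjusted p = 0.00348) and Cbr1 (0.42 ± 0.057, adjusted p = 0.00403), and the sulfiredoxin Srxn1 (0.30 ± 0.044, adjusted p = 0.00577). Gdf15, a stress-induced hormone, had 16.6, 12.7, 17.9 and 14.2 RPKM with 9cisRA, against 6.69, 7.30, 10.6 and 8.33 RPKM with atRA. The groups were apart (0.87 ± 0.12, adjusted p = 0.00488).

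The genes lower with 9cisRA differed less. Cav1, the coat protein of caveolae, had 3.04, 2.93, 3.55 and 3.80 RPKM with 9cisRA, against 4.63, 4.40, 4.77 and 5.42 RPKM with atRA (-0.47 ± 0.096, adjusted p = 0.0315). The groups did not overlap, and both lay below DMSO in the mean (5.94 ± 0.234 RPKM). Pkp1, a plakophilin of desmosomes and the 1 called gene among 19 tested squamous and cornified envelope genes, had 7.61 ± 1.40 RPKM with 9cisRA, 9.65 ± 0.646 RPKM with atRA and 17.6 ± 0.908 RPKM with DMSO (-0.33 ± 0.077 between isomers, adjusted p = 0.0479). Mxd1, a MYC antagonist of the MAX network, had 24.8, 25.0, 25.1 and 27.1 RPKM with 9cisRA, against 31.1, 29.8, 30.8 and 30.9 RPKM with atRA (-0.26 ± 0.047, adjusted p = 0.0165). Ahr, the receptor for aryl hydrocarbons, had -0.27 ± 0.061 (adjusted p = 0.0398). The other 6 of the 10 lowest, 2010109I03Rik, Adgrg7, Ube2d1, Fam45a, Mmgt1 and Msmo1, ranged from -0.35 to -0.25.

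Markers of intestinal cell types were not called at 6 h, apart from Cbr1, which is in the enterocyte list: 1 of 42 enterocyte, 0 of 17 stem cell, 0 of 20 goblet, 0 of 20 Paneth, 0 of 13 enteroendocrine and 0 of 38 cell cycle genes by limma, counts near the 1.72% of all tested genes. An unadjusted p below 0.05 was found at 8 enterocyte, 1 stem cell, 2 goblet, 1 Paneth, 2 enteroendocrine and 4 cell cycle genes. Over all tested genes it was found at 1790 of 11361. Medians were 0.039 for enterocyte, -0.0864 for Paneth and -0.11 for enteroendocrine markers. The summed level of the enterocyte list was 6460 to 7949 RPKM with 9cisRA and 5114 to 7589 RPKM with atRA, and that of the Paneth list 201 to 311 with 9cisRA and 219 to 398 with atRA. In bulk organoids, fewer cells of a type and less RNA per cell cannot be told apart. Of the markers of other cell types, 4 of 14 mesenchymal, 4 of 14 immune and endothelial and 5 of 17 tuft cell genes were in the table, with summed levels of 3.18 to 4.59, 9.15 to 10.3 and 3.38 to 4.38 RPKM with 9cisRA, and of 3.20 to 4.71, 9.11 to 9.88 and 4.26 to 5.12 RPKM with atRA.

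A second kind of gene among the calls had a different pattern across libraries. Jund, a subunit of the AP-1 factor, had 39.2, 24.3, 47.5 and 28.9 RPKM with 9cisRA, against 13.4, 21.2, 26.0 and 18.3 RPKM with atRA (0.80 ± 0.16, adjusted p = 0.0278). The spread between duplicates was large, 1 atRA library lay above a 9cisRA library, and DMSO averaged in between (25.0 ± 3.93 RPKM). Bola1, Tpgs1, Bmyc and Zbed5 were likewise among the 15 highest with DMSO means between those of the isomers, and so were the ribosomal protein genes Rplp2 and Rpl36 (0.62 each), which were picked after their values were seen. These genes are mostly rich in G and C: the transcripts of Jund and Tpgs1 have 67.1% and 65.3% GC, against a median of 49.7% over the 11037 genes with a value. Rplp2 has 55.0%, and Zbed5, with the largest difference of these genes (1.09), 48.3%.

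The difference between the isomers followed transcript GC content across all genes. The correlation was r = 0.52 over the 11037 genes (97.1% of those tested), 0.34 in mouse 1 and 0.55 in mouse 2, a description over genes that share the same 8 libraries. The median difference was -0.080 in the fifth of genes with the lowest GC and 0.0997 in the fifth with the highest, and the fifth with the highest GC held 101 of the genes called higher. Genes called higher had a median GC of 56.6% and genes called lower 43.6%. The change of log2 level per 10% of GC, relative to the mean of all libraries, was -0.013 to 0.032 in the 9cisRA libraries and -0.26 to -0.035 in the atRA libraries, with the lowest in the second duplicate of mouse 2. It was -0.13 to 0.14 in DMSO libraries at 6 h. Its part in the single calls was not tested, but the fit was repeated with each library's trend on GC and length removed, an alternative chosen after the data were seen.

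With these trends removed, 121 genes were called (1.1%), 108 higher with 9cisRA and 13 lower (0.979% and 0.118% of 11037), of which 84 and 8 were called before. The 84 that were called in both fits had a median GC of 52.4%, and the 87 called higher only without the removal 59.0%. Pdk4 was then higher with 9cisRA by 1.64 (adjusted p = 3.30e-07), Acot1 by 1.45 (adjusted p = 1.96e-05) and Abca1 by 1.21 (adjusted p = 8.69e-05). Acot2 was higher by 1.25 (adjusted p = 0.000323). PPAR target genes were then called higher at 15 of 44 and LXR target genes at 7 of 17, with 0 lower, retinoic acid response genes at 0 of 19, and mitochondrial fatty acid oxidation genes at 8 of 28. The medians of these lists, in the same order, were then 0.21, 0.14, 0.0035 and 0.11, against 0.17, 0.22, 0.039 and 0.12 without the removal. Jund was reduced to 0.46 (adjusted p = 0.0363), and Bola1, Bmyc, Erdr1, Nr2f6, Ier2, Ier5, Dgat2 and Rpl36 were no longer called. Zbed5 (1.11, adjusted p = 0.0293), Tpgs1 (0.51, adjusted p = 0.0254) and Rplp2 (0.57, adjusted p = 0.0483) were still called. The differences of Rara, Rarg, Rxra, Rxrb and Nr1h3, uncalled in either fit, changed sign and ranged from -0.058 to -0.028. The 1 call among the 27 receptor genes was then Nr1h4, the gene of FXR, at 0.30 (adjusted p = 0.0334), against 0.27 (adjusted p = 0.0556) without the removal. Of the 10 lowest genes with 9cisRA, Mxd1, Msmo1, Pkp1, Ahr and 2010109I03Rik were called in both fits, while the other 5 were not: Cav1 (-0.39, adjusted p = 0.114), Ube2d1 (adjusted p = 0.0654), Mmgt1 (adjusted p = 0.157), Adgrg7 (adjusted p = 0.195) and Fam45a (adjusted p = 0.309).

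**Figure D4:**
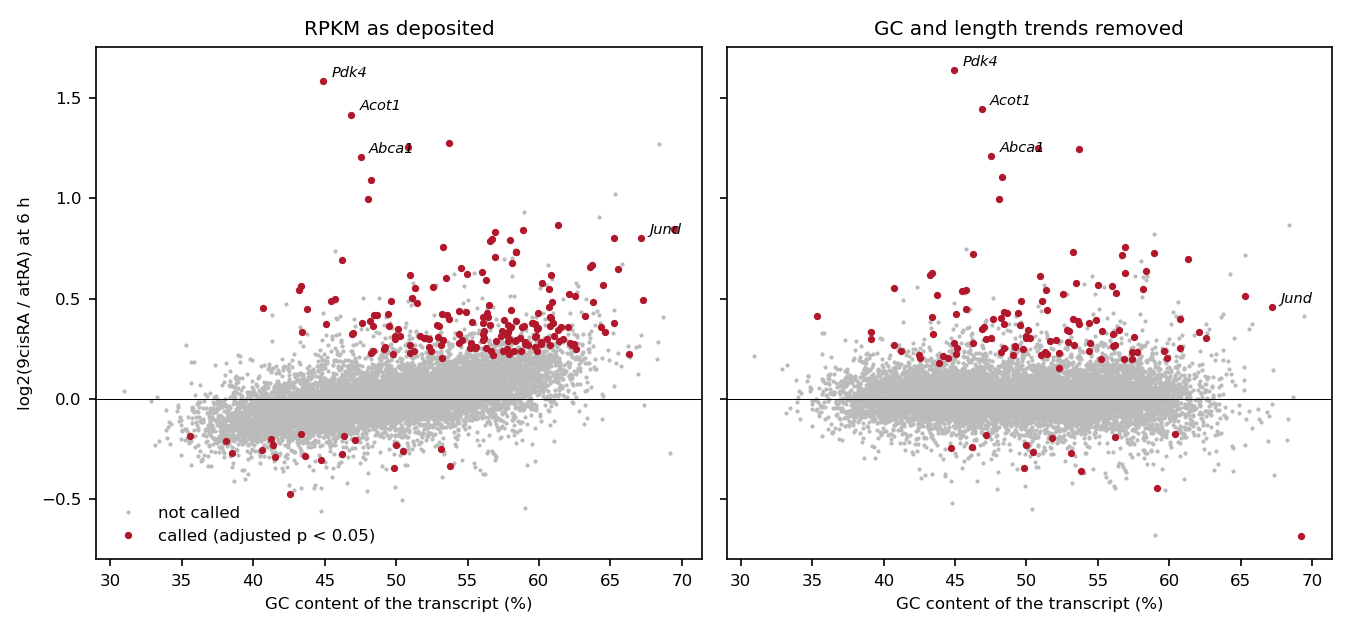
Log2 fold change of 9cisRA over atRA at 6 h (vertical axis) against the GC content of the transcript in percent (horizontal axis), for RPKM as deposited on the left and with each library's trend on GC and length removed on the right, red where called. The cloud of all genes slopes upward on the left (r = 0.52) and is level on the right, and Pdk4, Acot1 and Abca1 stay apart from it in both.

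The same isomers were also sequenced at 24 h, in libraries not used at 6 h but from the same 2 cultures, where 53 genes were called (0.467%). Of the 176 genes called higher at 6 h, 172 had a positive difference at 24 h (49.3% of all tested genes did), with a median of 0.19, and 16 were called higher there. These are 9.09% of the 6 h list and 47.1% of the 34 genes called higher at 24 h (0.299% of tested genes). Of the 19 called lower at 6 h, 12 were negative at 24 h and 0 were called lower there by limma (3 at an unadjusted p below 0.05), against 19 called lower at 24 h (0.167%). Libraries at 24 h also differed by GC between the isomers (r = 0.32 across genes). With GC and length trends removed, 21 of the 108 genes higher at 6 h were called higher at 24 h, of 60 called there (0.544% of 11037). Of the 13 genes lower at 6 h in that fit, 6 were negative at 24 h and 2 were called lower there, of 34 called (0.308%).

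Abca1 kept its difference, at 3.08 ± 0.207 RPKM with 9cisRA and 0.888 ± 0.121 RPKM with atRA at 24 h (1.37 ± 0.11, adjusted p = 9.11e-05). Pdk4 averaged 14.2 ± 1.26 RPKM with 9cisRA and 7.08 ± 0.491 RPKM with atRA (0.96 ± 0.075, adjusted p = 9.11e-05), and Acot1 75.1 ± 11.2 and 51.3 ± 8.08 RPKM in the same order (0.55 ± 0.10, adjusted p = 0.0376). Srebf1 and Acacb were called at both times, with 0.75 ± 0.11 and 0.84 ± 0.10 at 24 h. 1810065E05Rik, 1 of the 15 highest at 6 h (7.53 ± 0.394 with 9cisRA and 3.52 ± 0.0691 RPKM with atRA), had 11.3 ± 0.588 and 11.3 ± 1.04 RPKM at 24 h in the same order. The change of the isomer difference between 6 h and 24 h was itself called for 4 genes (0.0352% of tested genes), Fabp6, Rnase4, Gm5485 and Mxd1, of which only Mxd1 was called at 6 h. Fabp6, the ileal bile acid binding protein, had 0.284 ± 0.177 RPKM with 9cisRA and 7.75 ± 4.09 RPKM with atRA at 24 h, and 0.145 ± 0.109 and 0.127 ± 0.179 RPKM at 6 h in the same order. It reached the level required for testing only in its 4 atRA libraries at 24 h, so its call rests on the group that admitted it. Cyp26b1, not called at 6 h, was lower with 9cisRA at 24 h by 1.00 on the log2 scale (5.77 ± 1.40 with 9cisRA and 11.9 ± 1.74 RPKM with atRA, adjusted p = 0.00261).

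**Figure D5:**
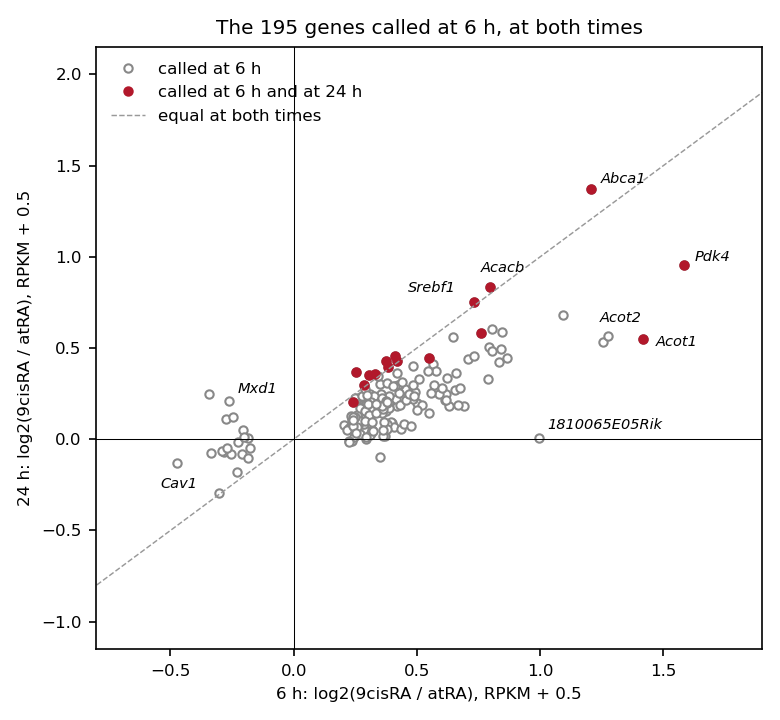
Log2 fold change of 9cisRA over atRA at 6 h (horizontal axis) and at 24 h (vertical axis) for the 195 genes called at 6 h, filled where also called at 24 h, with a dashed line at equal values. Abca1 lies at 1.205 and 1.37, Pdk4 at 1.58 and 0.96, and 1810065E05Rik at 0.99 and 0.0087.

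The RXR antagonist was also set against DMSO at 6 h, in libraries that the isomer comparison does not use. Of the 176 genes higher with 9cisRA, 35 were called higher with RXRi and 32 lower, against 10.6% and 14.6% of all tested genes. The count called lower was near the share over all genes. The median difference of the 176 was -0.022, against -0.0040 over all tested genes. LXR target genes were called lower with RXRi at 10 of 17 and higher at 2: Abca1 had 0.0347, 0.0502, 0.0460 and 0.0176 RPKM with RXRi, against 0.242, 0.214, 0.235 and 0.237 RPKM with DMSO (-0.45 ± 0.11, adjusted p = 0.0103), with no overlap. Abcg8 fell by 1.88 ± 0.087 (adjusted p = 5.84e-09), Abcg5 by 1.31 ± 0.084 (adjusted p = 1.24e-07) and Scd2 by 0.97 ± 0.048 (adjusted p = 1.15e-08). PPAR target genes were called higher with RXRi at 10 of 44 and lower at 10. Pdk4 had 1.04, 1.09, 0.869 and 1.28 RPKM with RXRi, against 0.271, 0.242, 0.271 and 0.357 RPKM with DMSO (0.997 ± 0.075, adjusted p = 5.66e-07), and Cpt1a was higher by 0.43 ± 0.050 (adjusted p = 2.42e-05). Acot1 was not called (0.054 ± 0.10, adjusted p = 0.745).

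The number of calls moved with single libraries. Leaving out the second atRA duplicate of mouse 2, the library with the steepest GC trend, gave 43 calls, and leaving out the first atRA duplicate of mouse 2 gave 695, the first of mouse 1 95 and the second of mouse 1 335. Without a term for the mouse 40 genes were called, all higher with 9cisRA. With each of the 8 isomer libraries at 6 h left out in turn, 37 of the 195 genes were called every time, among them Pdk4, Acot1, Acot2, Abca1, 1810065E05Rik, Gdf15, Acaa1b, Acacb, Cpt1a, Slc25a20, Eci2, Acot4, Scd2, Abcg5, Abcg8, Srebf1, Cbr3, Srxn1 and Mxd1. Jund and Ier2 were called in 5 of the 8, and Pkp1 and Ahr in 4.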

How the data were processed

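RNA of 36 libraries was sequenced after TruSeq mRNA preparation, per the labels. The deposited values are RPKM, computed by the authors. The mm10 build, STAR 2.5.2b and bcl2fastq 2.17 are named in the submitters' processing notes; how reads were counted, and whether by strand, is not given in the sources used here. The RPKM steps gave whole reads for 100% of genes (tolerance 0.05 reads), 19.6 to 30.7 M per library, which sets the counting precision.

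Genes with at least 1 RPKM in at least 4 of 36 libraries were tested. Values were log2(RPKM + 0.5), with duplicates averaged within mouse and condition (18 values). All 9 conditions entered a limma 3.58.1 fit (R 4.3.3) with a mean per condition, the mouse as a block and a prior variance that follows mean level; degrees of freedom were 8 residual and 5.01 prior. Intervals are 95% intervals. The labels give the mouse of each library, hence the block; differences between the mice correlated between conditions at a median of r = 0.44 (0.037 to 0.66 over 36 pairs of conditions). Nothing in the labels says that duplicates are separate cultures, and both mice are littermates. With the mouse as a block, p-values measure how far differences between conditions varied between these 2 cultures, pooled over all 9 conditions. They do not cover spread beyond these 2 cultures.

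Named genes are the 15 highest and 10 lowest called genes with the same sign in both mice, from each of 13 gene lists the members of smallest p (at most 4), and a panel of retinoid and lipid genes. The members, lists and panel were chosen with earlier results of these data known. Mylip, Cyp26a1, Rarb and Crabp2 of that panel are not analysed here, and some other genes that the rule names are not reported here. Genes were matched to RefSeq (GRCm38.p6) by Entrez identifier for 12637 of 12652, and GC content and length come from GENCODE transcripts. On simulated counts for 11112 genes the fit recovered 97 of 97 genes changed by 1 on the log2 scale and 82 of 99 changed by 0.5. Of its 195 calls there, 16 (8.21%) were unchanged genes. The simulated noise was independent between genes, with no difference between the mice and no trend on GC or length. The libraries here do have such trends, so these rates do not carry over to them. Figures were drawn with matplotlib.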

Additional observations from a re-analysis of the deposited data

Results flagged for a closer look

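Mxd1, a MYC antagonist, drew attention on both measures used. Its highest 9cisRA library at 6 h, the second duplicate of mouse 2 at 27.1 RPKM, lay apart from the next at 25.1 RPKM at a gap of 0.885 of the range of the 4 libraries, past Dixon's 95% critical value. This was the only such library among 176 groups examined (88 named genes in the table in 2 groups of 4 libraries), where chance flags about 1 in 20. The isomer difference of Mxd1 also differed between the times, by 0.471 ± 0.066 at 24 h relative to 6 h (adjusted p = 0.0226 by limma): it had 34.3 ± 0.546 RPKM with 9cisRA and 29.6 ± 0.240 RPKM with atRA at 24 h, and 25.5 ± 0.816 and 30.6 ± 0.266 RPKM at 6 h in the same order.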

How the results depend on the processing

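No named gene called as reported or under an alternative changed direction; of the 87 tested, 13 uncalled ones took the other sign in 49 values in all, under GC removal, another scaling, voom or samples left out. The 195 calls at 6 h became 40 with no replicate block, that is without pairing by mouse, 521 with mouse and duplicate number as a replicate block over 36 libraries, 562 with 36 libraries as separate samples, 305 with the 4 groups at 6 h in the fit, 743 with the 2 isomer groups alone, 43 at an adjusted p below 0.01 and 496 below 0.1. With GC and length trends removed it was 121, and 57 when the second atRA duplicate of mouse 2 was also left out. Leaving out a library gave 43 to 695, mouse 1 58 and mouse 2 75; in fits without a mouse the duplicates of the other mouse stand as samples. The 53 calls at 24 h became 35 with quantile normalization, 10 with no replicate block, 260 with the mouse and duplicate block, 292 with separate libraries, 30 with no variance trend, 106 with voom on recovered reads, 18 and 105 at the stricter and looser threshold, 94 with trends removed and 80 with that library also left out, 28 to 59 with a library left out (28 without the second atRA duplicate of mouse 1 at 6 h and 33 without the first of mouse 2), 112 without mouse 1 and 84 without mouse 2. The 4 genes whose isomer difference changed with time became 2 at a pseudocount of 0.1 or a mean of at least 5 RPKM, 1 with no replicate block, 27 with either library-level fit, 2 and 7 at the stricter and looser threshold, 3 to 5 with a library left out, 2 without mouse 1 and 10 without mouse 2. Of the values of named genes under the alternatives, 2257 kept their side of the threshold, 219 lost a call and 108 gained one. Another 14, uncalled in either fit, took the other sign with a shift of at least their SE. Shifts without a change of sign were not counted by size, and some exceeded the SE: Jund had 0.80 ± 0.16 as reported and 0.46 with trends removed. The causes of these moves were not tested, beyond the smaller or larger number of samples, groups or genes each alternative uses. The GC removal, the restriction to genes with a GC value and the fit without the first 9cisRA duplicate of mouse 2 at 24 h were chosen after seeing the data. The self-test and the intervals cover counting and sampling spread only; with n = 2 mice, differences well under 0.5 on the log2 scale may be missed.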

Other observations

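Other gene groups gave few calls between 9cisRA and atRA at 6 h. With 1.72% of all tested genes called, counts of 0 or 1 do not set these lists apart. Aldh3a1, an aldehyde dehydrogenase of the aryl hydrocarbon receptor list, was higher with 9cisRA at 11.4, 10.95, 9.84 and 9.73 RPKM, against 5.52, 7.02, 5.45 and 6.01 RPKM with atRA (0.76, adjusted p = 0.00573 by limma), and was the 1 call among 7 tested genes of that list. Limma called 0 of 26 subunits of oxidative phosphorylation (5 at an unadjusted p below 0.05), of which 20 had a positive difference. It called 0 of 30 interferon-stimulated genes (5 at an unadjusted p below 0.05), 0 of 15 VDR and PXR target genes (4), 0 of 12 Wnt target genes (2) and 0 of 28 genes of glycolysis and the hypoxia response (2). Over all 11361 tested genes, 1790 had an unadjusted p below 0.05 by limma. Of 39 lists, 21 held no call.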
